A study of Mus musculus with 8 samples.

Results

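A set of 9 mRNAs that the literature reports as targets of miR-21 was followed in primary mouse aortic smooth muscle cells transfected with a mimetic of moR-21, the offset RNA that lies next to miR-21 on the same precursor. The 9 genes were Pdcd4, Spry1, Spry2, Reck, Btg2, Timp3, Smad7, Rasa1 and Pik3r1, and all array probes that carried one of these symbols were taken. Of the 9 genes, 8 had a probe (11 of the 25697 probes on the array), and 5 genes with 7 probes were detected well enough to be tested. Of these, Timp3 rose by 47.3% at its brighter probe. Its other probe lay near background and was not called, and neither was the mean over both, which such a probe shrinks. None of the 5 genes fell at the same cutoffs, although Pdcd4 was called lower when the sample moR-21 2, but no other sample, was left out. Pik3r1, Reck and Rasa1 were not called.

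The cells were grown out of pieces of several mouse aortas from which the adventitia had been removed, and the age, strain and sex of the mice that gave the aortas were not stated for these cells. The methods name a mouse strain for the artery injury model alone. The control group (3 samples) received a scrambled mimetic and the moR-21 group (3 samples) received the moR-21 mimetic, each at 5 nM with RNAiMAX, and RNA was taken after 48 h. Control 1 and moR-21 3 were each hybridized to a pair of Illumina arrays, so that 8 arrays stood for 6 samples. No sample received a miR-21 mimetic, and the cells of both groups kept their own miR-21 and moR-21. Nothing in the labels says that the samples of a group came from separate cultures, so the p-values measure the spread between these samples, which may be technical.

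A microRNA guides an Argonaute protein to messenger RNAs that pair with its seed, the bases near its 5′ end, and lowers their stability or translation. miR-21 is abundant in vascular smooth muscle and rises after vessel injury, and many of its reported targets are brakes on growth signalling or on matrix breakdown. A microRNA-offset RNA (moR) is a short RNA cut from the precursor beside the mature microRNA, and its 5′ end gives it a seed of its own.

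The sequences are shown because the mimetic and miR-21 differ in the bases that choose targets. They were read 5′ to 3′ from RefSeq on the minus strand of GRCm38.p6, with positions 2 to 8 in capitals. The first lies at chr11:86584120-86584141, the second at chr11:86584082-86584103 and the third, the stretch of the hairpin just before miR-21a-5p, at chr11:86584142-86584158.
miR-21a-5p: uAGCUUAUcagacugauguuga
miR-21a-3p: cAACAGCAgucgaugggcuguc
hairpin before miR-21a-5p, with the moR-21 seed window: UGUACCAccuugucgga

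The place of moR-21 on the hairpin was found from the core letters of its seed windows. Positions 2 to 8 of moR-21 fell on the first 7 bases of the RefSeq hairpin, so that its position 1 lies outside that hairpin. Of the 7 seed positions, 1 held the same base in moR-21 and miR-21a-5p. Among 1679 mature mouse microRNAs in the RefSeq table, 2 carried the miR-21a-5p seed (miR-21a-5p and miR-21c), and 0 carried the moR-21 window at positions 2 to 8. The whole mimetic and the target sites in the 9 mRNAs were not analysed here.

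Values below are log2 of quantile-normalized intensities with the repeat arrays averaged, and a difference is moR-21 minus scrambled control. A probe was tested when its detection p-value was under 0.01 on at least 1 array, and a gene was called at a fold change over 1.3 (0.38 on the log2 scale) with a limma adjusted p under 0.002, the cutoffs the study used. Of 8727 genes tested at their brightest probe, 7.79% were called, 3.41% higher and 4.38% lower. Of the 5 tested members, 1 was called, and it was higher. Without the fold cutoff, 4 of the 5 had an adjusted p under 0.05, 3 higher and 1 lower, where the share over all tested genes was 36.1%, with 18.8% higher and 17.3% lower. In 4 of the 5 the 3 moR-21 samples lay wholly on one side of the 3 control samples, 3 above and 1 below, where the share over all tested genes was 46.3%, with 24.4% above and 21.9% below. Their median difference was 0.21, beside 0.01 over all tested genes. Calls rest on the limma fit over all tested probes, since an exact permutation test of 3 against 3 samples cannot give less than p = 0.1 (two-sided).

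Median intensities were 102 to 109 on the 8 arrays, with 10285 to 10512 probes detected. Repeat arrays were averaged before the fit, so the 3 samples per group limit the precision. Repeat arrays of a sample differed by a median of 0.0573 (control 1) and 0.0641 (moR-21 3) on the log2 scale. A label field calls the cells AoECs and the others call them AoSMCs. Of 8 smooth muscle markers 6 were detected on at least 1 array, with Myh11 and Cnn1 undetected on all arrays. Tagln was detected on 0 of 4 control and 4 of 4 moR-21 arrays, and Lmod1 on 1 of 4 and 2 of 4. Of 8 endothelial markers Vwf alone was detected. All 6 fibroblast markers and 3 of 7 macrophage markers were detected, without Ptprc or Emr1. The summed normalized intensity of the smooth muscle markers was 10097 to 10459 in the control and 12835 to 13679 in the moR-21 samples. Acta2 made up most of that sum, with a mean log2 signal of 13.18 in the control samples, where the next brightest, Smtn, had 8.73. The fibroblast sum was 17593 to 18305 and 15198 to 16048. Most of it was Dcn (control mean 13.34, beside 11.43 for Col1a1), which was at −0.22 (limma adjusted p = 0.00654) and not called. The smooth muscle markers did not move together, with 3 higher and 3 lower. Acta2 was called higher at its brightest probe (0.40) and at its dimmer ones (0.73, 0.64 and 0.81). The brightest probe missed the fold cutoff without moR-21 3 (0.36) and the p cutoff with background correction (limma adjusted p = 0.00318). Des was at −0.378 (limma adjusted p = 8.60e-05), just short of the fold cutoff of 0.379, and was called lower in 6 of 19 alternatives. Of the 6 fibroblast markers, 5 were lower and 1 higher at an adjusted p under 0.05 (100%, beside 36.1% of all tested genes). Lum was called lower (−0.56) and Thy1 was called higher (0.53). The endothelial sum was 117 to 120 and 118 to 127. The macrophage sum was 1622 to 1688 and 1465 to 1498, and most of it was Cd14 (control mean 10.43, beside 7.32 for Lyz2). Cd14 was at −0.27 and not called, and Lyz2 was called higher (0.48). The part of these shifts in the results below was not tested, and in such bulk RNA fewer cells of a type cannot be told apart from less RNA per cell.

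**Figure D1:**
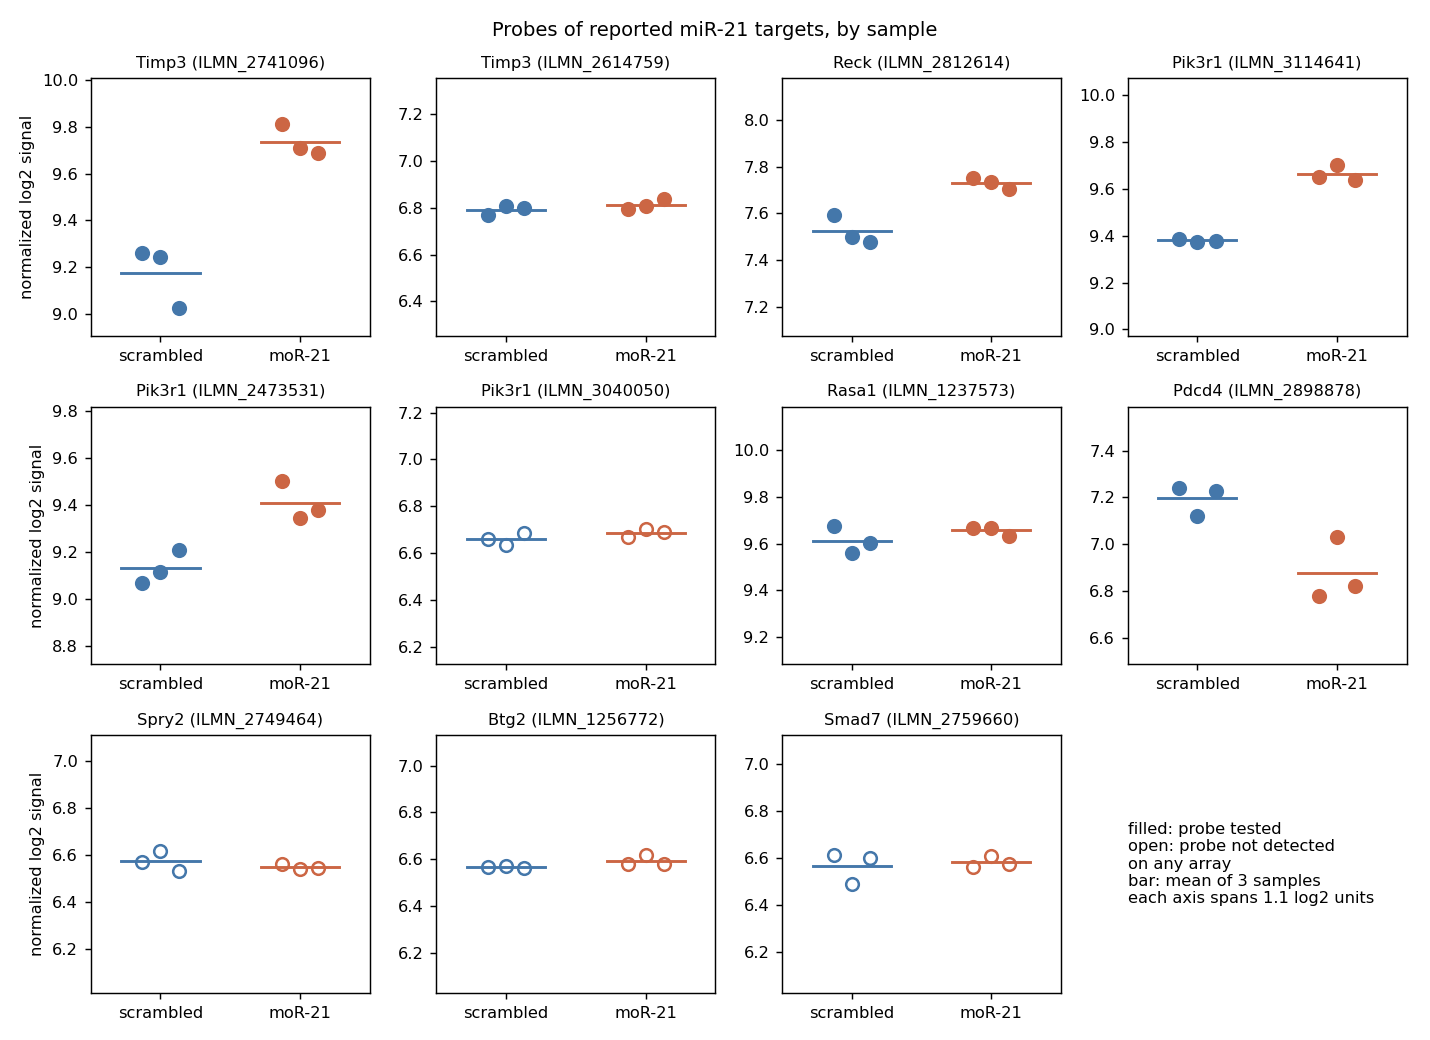
Normalized log2 signal of each of the 11 probes of the reported miR-21 targets in the 3 scrambled control and 3 moR-21 samples, with group means as bars, and every axis spanning the same width. The moR-21 samples lie above all controls for the brighter Timp3 probe, Reck and the brighter pair of Pik3r1 probes, and below them for Pdcd4, while open symbols mark probes that were not detected on any array.

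Timp3 (chr10:86300412-86349505, GRCm38.p6) encodes a matrix-bound inhibitor of metalloproteinases and of Adam17. It had the largest difference of the tested members as processed above. Pdcd4 had the larger one with background correction (−0.90, beside 0.635 for Timp3) and at the mean over probes (−0.32 beside 0.29). At the brighter Timp3 probe, ILMN_2741096, the signal was 9.26, 9.24 and 9.03 in the control samples and 9.81, 9.71 and 9.69 in the moR-21 samples. Every moR-21 sample was above every control sample, with control 3 the lowest. The group means were 9.18 ± 0.130 and 9.74 ± 0.067 (SD, n = 3 each), a difference of 0.56 (SE 0.063, 95% interval 0.42 to 0.69, fold 1.47, limma adjusted p = 1.18e-05). Timp3 was called higher without each sample in turn, with differences of 0.48 to 0.60. Its other probe, ILMN_2614759, was not detected on any control array and on 1 of 4 moR-21 arrays, and it lay between 6.77 and 6.84 in all samples (adjusted p = 0.767). When both probes were averaged, the difference was 0.29 and Timp3 was no longer called. Because ILMN_2614759 lay near background, averaging with it shrinks any difference. A larger difference can stay called in this setting, as at Mmp13 below, but the lost call does not test the change at the brighter probe.

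Reck (chr4:43875521-43944806) encodes a membrane-anchored protein that also restrains matrix metalloproteinases. Its signal was 7.59, 7.50 and 7.48 in the control samples and 7.75, 7.73 and 7.71 in the moR-21 samples. The groups did not overlap, but the difference of 0.21 (SE 0.048, 95% interval 0.10 to 0.31, fold 1.15, limma adjusted p = 0.00406) passed neither cutoff of the call.

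The genes around these inhibitors moved in both directions. Of 16 listed proteases and inhibitors 11 were tested, of which 1 rose and 2 fell (27.3% called, beside 7.79% of all tested genes). Their median difference was 0.00. Mmp3, stromelysin, rose by 0.52 (adjusted p = 1.94e-05), between 0.33 and 0.56 at its 3 probes. The collagenase Mmp13 fell by 0.72 and the membrane-type protease Mmp14 fell by 0.44 (adjusted p = 2.36e-07 and 9.77e-06). Averaged over its tested probes, of which the dimmer was detected on 1 array, Mmp13 had −0.39 and was still called. Of the other Timp genes, Timp1 had a difference of 0.04 (95% interval −0.07 to 0.15), with overlapping groups, Timp2 had 0.21 (adjusted p = 0.00862) and was not called, and Timp4 was not detected. Adam17, a sheddase that Timp3 inhibits, had a difference of −0.35 (adjusted p = 7.16e-05), short of the fold cutoff.

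Pik3r1 (chr13:101680761-101768217) encodes p85 alpha, the regulatory subunit that holds and stabilises the catalytic subunit of class I phosphoinositide 3-kinase. Its brightest probe, ILMN_3114641, read 9.39, 9.37 and 9.38 in the control samples and 9.65, 9.70 and 9.64 in the moR-21 samples. Its next probe, ILMN_2473531, read 9.07, 9.11 and 9.21 against 9.50, 9.35 and 9.38. At both probes all moR-21 samples were above all controls. The differences were 0.28 (SE 0.044, 95% interval 0.19 to 0.38, fold 1.22, limma adjusted p = 2.06e-04) and 0.28 (SE 0.055, adjusted p = 0.00127), so both probes passed the p cutoff and missed the fold cutoff. Both missed the p cutoff too with background correction (adjusted p = 0.00746 and 0.0172) and with median scaling (0.0034 and 0.016). ILMN_2473531 also missed it in other settings, such as without control 1 (adjusted p = 0.0096). A dim probe, ILMN_3040050, was not detected on any array.

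Of 21 listed genes of PI3K signalling 10 were tested, of which 0 rose and 2 fell (20% called, beside 7.79% of all tested genes). Their median difference was −0.14. Pik3cb, the p110 beta catalytic subunit, fell by 0.46 (adjusted p = 2.07e-05). The other p85 gene, Pik3r2, had a difference of −0.37 (95% interval −0.46 to −0.27, adjusted p = 2.58e-05) and missed the fold cutoff.

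Rasa1 (chr13:85214699-85289486) encodes a GTPase-activating protein that switches Ras off. It read 9.67, 9.56 and 9.60 in the control samples and 9.67, 9.67 and 9.63 in the moR-21 samples. These values overlapped, and the difference was 0.04 (SE 0.047, 95% interval −0.06 to 0.15, limma adjusted p = 0.524), which leaves room for a change of up to that bound.

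The Sprouty proteins are feedback inhibitors of receptor signalling to Ras and ERK. The Spry2 probe was not detected on any of the 8 arrays and read 6.53 to 6.61. No probe carried the symbol Spry1. A pair of probes named LOC100046643, which the array annotates as a predicted gene similar to sprouty 1, was not detected on any array either and cannot be assigned to Spry1 here. No fold change is given for these genes. Of 32 listed genes of Ras and ERK signalling 20 were tested and 0 were called, while 5 of them had an adjusted p under 0.05 (3 higher and 2 lower). That is 25% of the list, beside 36.1% of all tested genes, and the median difference was −0.05. The range ran from −0.30 at Egr1, an early transcription factor that ERK induces (adjusted p = 3.93e-04), to 0.29 at Ccnd1, cyclin D1 (adjusted p = 3.50e-04). Of the other Sprouty genes, Spry3 had a difference of −0.10 (adjusted p = 0.203), and Spry4 was detected on 1 array.

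Pdcd4 (chr19:53892231-53937592) encodes a tumour suppressor that binds the helicase Eif4a and holds back translation initiation, and it was the tested member with a lower mean after moR-21. Its probe read 7.24, 7.12 and 7.23 in the control samples and 6.78, 7.03 and 6.82 in the moR-21 samples. The groups did not overlap, and moR-21 2 lay closest to the controls. The difference was −0.32 (SE 0.063, 95% interval −0.46 to −0.18, fold 0.801, limma adjusted p = 0.00134), which passed the p cutoff and missed the fold cutoff. The probe was dim, being detected on 4 of 4 control arrays and on 1 of 4 moR-21 arrays, and arrays A and B of control 1 differed by 0.219. Without moR-21 2 the difference was −0.40 (adjusted p = 1.40e-04) and Pdcd4 was called lower, and with background correction it was −0.90 (adjusted p = 0.00660) and was not called. Leaving out each of the other samples in turn gave differences of −0.36 to −0.27. The limma adjusted p was then 0.00233 to 0.00880, so Pdcd4 missed both cutoffs.

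Btg2, an antiproliferative partner of the deadenylases that shorten poly(A) tails, was not detected on any array, and its probe read 6.56 to 6.62. Of 18 genes listed for the Btg and Tob proteins, their deadenylases and the initiation factors, 16 were tested. Of these 0 rose and 1 fell (6.25% called, beside 7.79% of all tested genes), with a median difference of −0.08. The gene that fell was Pabpc1, the cytoplasmic poly(A)-binding protein, by 0.63 (adjusted p = 2.12e-04), and its call was lost without control 2 (−0.58, adjusted p = 0.00222), with background correction (−0.68, adjusted p = 0.00538) and with no detection filter (−0.63, adjusted p = 0.00313). Averaged over its probes it had −0.40 and was called. The highest difference was 0.29 at Eif4a2 (adjusted p = 0.00109), while Eif4a1, the helicase that Pdcd4 is best known to bind, had −0.18 (adjusted p = 0.0194). Neither was called.

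Smad7, which blocks TGF-beta receptors from within the cell, was not detected on any array (6.49 to 6.61), so no change could be read. Of 22 listed genes of Smad signalling 16 were tested, with a median difference of 0.00. Of these 0 rose and 1 fell (6.25% called, beside 7.79% of all tested genes). Id1, an inhibitor of basic helix-loop-helix factors and a BMP response gene, fell by 0.58 (adjusted p = 5.31e-07). The highest difference was at the receptor Tgfbr2, also a reported miR-21 target, with a difference of 0.32 (adjusted p = 3.04e-04) that missed the fold cutoff.

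**Figure D2:**
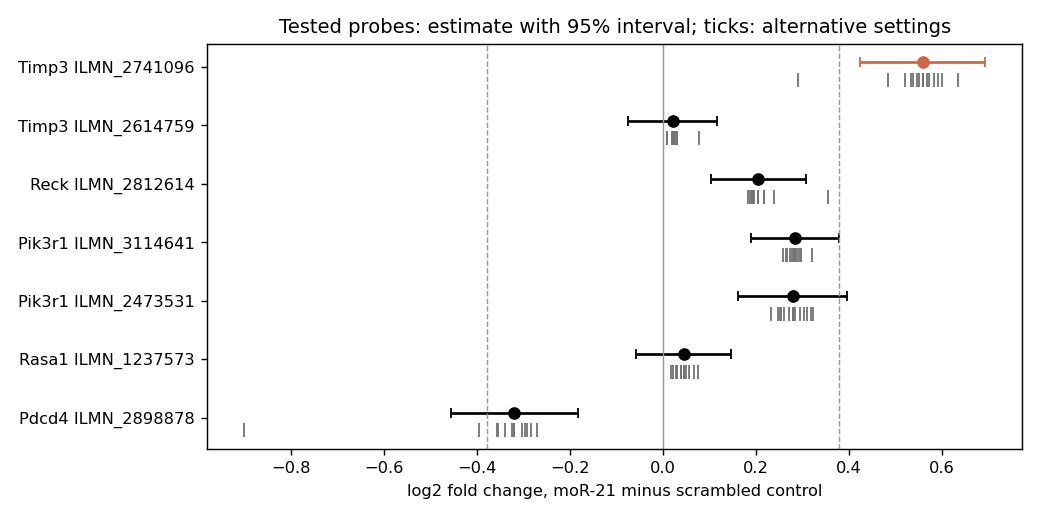
Difference in log2 signal (moR-21 minus scrambled control, horizontal axis) at the 7 tested probes, with the limma 95% interval, the fold cutoff as dashed lines and one tick for each alternative setting. The brighter Timp3 probe lies past the cutoff at 0.56, with a tick at 0.29 for the mean over both its probes, and the outlying Pdcd4 tick at −0.90 is background correction.

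A wider list of 41 other mRNAs reported as miR-21 targets had 27 tested genes, with a median difference of 0.05. Of these 3 rose and 3 fell (22.2% called, beside 7.79% of all tested genes). The list was chosen with earlier results of these data known, so the higher share cannot be read as a trait of such targets. Lrrfip1, a nucleic acid sensor, rose by 0.83 (adjusted p = 4.56e-08), with 0.14 at a dim probe and 0.49 over both. Map2k3, the kinase above p38, rose by 0.62 (adjusted p = 2.47e-07). The transcription factor Nfib rose by 0.41 (adjusted p = 1.07e-04), and it missed the fold cutoff without moR-21 2 (0.36) and the p cutoff with background correction (0.47, adjusted p = 0.00395).

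The 3 that fell were led by Tgfbi, a secreted matrix protein induced by TGF-beta, by 0.91 (adjusted p = 1.70e-08), with −0.31 at its dim probe. Anp32a, a phosphatase 2A inhibitor, fell by 0.86 (adjusted p = 8.76e-09) at its brightest probe, while its other probes differed by 0.04 and −0.01, and its mean over the probes was not called. Sox5, a transcription factor of cartilage, fell by 0.49 (adjusted p = 2.22e-06). Among the most cited targets, Tpm1, a tropomyosin, had 0.36 (adjusted p = 8.77e-05) and missed the fold cutoff, and Bcl2, the survival factor, was at the edge of detection. Its brighter tested probe was detected on 2 of 4 control and 0 of 4 moR-21 arrays, and the other on 0 of 4 control and 2 of 4 moR-21 arrays.

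**Figure D3:**
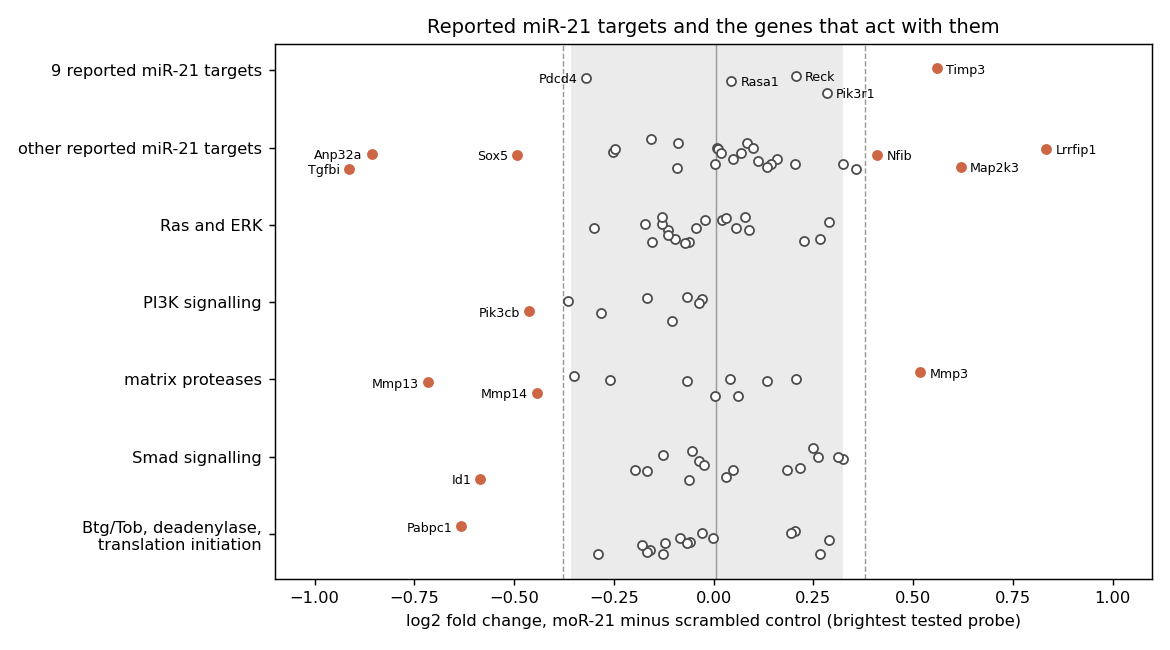
Difference in log2 signal (horizontal axis) of the tested genes reported here at their brightest probe, by list, with called genes filled and named, the middle 90% of all 8727 tested genes shaded and the fold cutoff dashed. Timp3 is the filled point among the 9 reported targets, the other reported targets have 3 filled points on each side, and the plotted PI3K genes lie below 0.

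The gene that hosts the miR-21 precursor, Vmp1 (chr11:86583858-86683836), is named Tmem49 on the array, and its 5 probes disagreed. The brightest differed by 0.13 (adjusted p = 0.259), and the dimmer ones by −0.06, 0.39, 0.37 and 0.14, of which the probe at 0.39 was called higher (adjusted p = 4.99e-05). Array probes for messenger RNA do not measure miR-21 or moR-21 themselves.

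The signal of Timp3 over the 6 samples was most like that of LOC100046741 (Pearson r = 0.999), Glipr2 (0.997) and Man2b1 (0.996). The 6 points fall into the 2 treatment groups, and 826 of 8727 genes had r above 0.9 with Timp3.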

How the data were processed

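RNA of 6 samples (3 per treatment, 8 arrays) was measured on Illumina mouse expression BeadChips. The authors deposited non-normalized probe intensities, with no background correction stated, and a detection p-value beside each intensity. The study's methods name quantile normalization, lumi and limma. Here quantile normalization was run over the 8 arrays before taking log2, the arrays of control 1 and of moR-21 3 were averaged, and limma 3.58.1 (lmFit and eBayes, R 4.3.3) compared the treatments, with no covariate, over the 11651 probes that at least 1 array detected (p under 0.01). The Benjamini-Hochberg adjustment ran over all of them. Genes were read at the brightest tested probe, under the symbols of the table. All 8 columns of intensities were assigned by name. Scripts were first tested on simulated data, and figures were drawn with Python 3.11.15 and matplotlib 3.10.9.

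The members and the gene lists were chosen with earlier results of these data known. From each list the called genes were named, at most 6 a list by size, or the highest and lowest where fewer than 2 were called, and the 3 genes most correlated with a called member. Tpm1, Bcl2, Timp1, Timp2, Timp4, Adam17, Pik3r2, Spry3, Spry4, Eif4a1 and the markers Des and Cd14 were named outside that rule, after their values were seen. Some genes of the lists are counted there but not reported here. The alternatives were normexp (offset 16), median scaling, cyclic loess, a stricter and no detection filter, array A or B alone, duplicateCorrelation, a replicate block, trended robust eBayes, leaving out each sample, other cutoffs (adjusted p under 0.05 or fold over 1.5) and the mean over probes. Gene and microRNA positions come from RefSeq GRCm38.p6, since the array table gives none. Columns left without a sample numbered 0. Slide was not tested as a batch, since the table names none.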

Additional observations from a re-analysis of the deposited data

How the results depend on the processing

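Over 19 alternatives, the 7 tested probes of the reported targets kept their direction in all fits that tested them. Of these values 126 kept their call status, 2 lost the call (Timp3 at a fold over 1.5, and at the mean over its probes, 0.29, adjusted p = 3.43e-04) and 1 gained it (Pdcd4 without moR-21 2). The status joins both cutoffs, and some of the 126 crossed the p cutoff alone. Pik3r1 did so with background correction (limma adjusted p = 0.00746). The mean for Timp3 takes in a probe near background, which shrinks any difference. The count of members called higher was thus 0 instead of 1 with a fold over 1.5 and with the mean over probes. The pathway lists together held 73 tested genes, of which 1 rose and 6 fell (9.59% called, beside 7.79% of all tested genes). Leaving out each sample gave 1 to 1 members higher and 0 to 1 lower, 2 to 4 other reported targets higher and 3 to 3 lower, and 1 to 1 pathway genes higher and 5 to 7 lower. With a fold over 1.5, pathway genes called were 0 higher and 3 lower instead of 1 and 6, and calls over all genes were 70 higher and 147 lower instead of 298 and 382. The lower count of 1 came without moR-21 2.

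With the replicate block, 1 member was called higher and 0 lower, 3 other reported targets rose and 3 fell, 1 pathway gene rose and 6 fell, and over all genes 299 rose and 383 fell. Same-numbered samples correlated in their deviations by 0.187, 0.0441 and 0.0597, so the shared number was not taken to pair them. Pdcd4 was dim, and with detection required on all arrays it was not tested. Btg2, Smad7 and Spry2 lay at background, where a change could not be detected.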
